A study of Mus musculus with 15 samples.

Results

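The cerebral cortex of mice without a working Slc1a4 gene was compared with wild-type cortex by RNA sequencing. Knockout (KO) samples carried the genotype given as SLC1a4 -/-, and wild-type (WT) samples came from the same C57Bl/6 strain; all mice were male and 5 months old, and no other allele, agent or treatment is given for either group. The comparison used 8 libraries, 4 of KO cortex (replicates 1 to 4) and 4 of WT cortex (replicates 5 to 8), out of 15 in the series; the other 7 came from striatum. Genes were taken into it when their normalized count, a read count scaled to the library's depth, reached at least 10 in at least 3 of the 8 cortex libraries. This left 16300 of the 26595 genes listed. How the allele was made, and whether each library came from a separate animal, are not given in the sources used here, so every p-value reflects the variation among these libraries alone.

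Slc1a4 encodes ASCT1, a sodium-dependent exchanger in the plasma membrane that carries small neutral amino acids such as serine, alanine, cysteine and threonine. In brain, serine feeds protein, phospholipid and one-carbon metabolism, and its mirror-image form, D-serine, is a co-agonist of the NMDA class of glutamate receptors. Loss of the human gene causes a neurodevelopmental disorder with small head size, a thin corpus callosum and spasticity. The groups of genes described here follow from that biology: amino acid carriers, serine enzymes, glutamate receptors, sterol synthesis, mitochondria and ribosomes, neuronal activity genes and cell type markers.

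The cortex libraries held 26791109 to 30276815 counted reads, with 21824 to 22294 genes above 0. Markers of cortical excitatory neurons were present in every one, and Slc17a7, the vesicular glutamate transporter, stood between 31947 and 38962 normalized counts. KO replicate 2 and WT replicate 7 lay farthest apart on the first principal component, at -22.4 and 31.1. The groups mixed along that axis, which held 24.8% of the variance. WT replicate 8 stood at -14.1 and KO replicates 3 and 4 at 7.85 and 4.27, so it did not separate the genotypes. Some libraries also differed in markers of neighbouring tissue, and those values stand beside the results they touch.

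Slc1a4 itself was low in all KO libraries. On chromosome 11 (GRCm38, positions 20302180 to 20332713, minus strand), the gene ENSMUSG00000020142 stood at 252, 308, 249 and 251 normalized counts in KO replicates 1 to 4. In WT replicates 5 to 8 it stood at 1592, 1613, 1797 and 1494. The lowest WT library was 4.85 times the highest KO library. KO cortex kept 16.3% of the WT level, a log2 fold change of -2.61 (SE 0.083, 95% interval -2.80 to -2.43). The adjusted p of limma's moderated test was 4.76e-08, and the exact permutation test (two-sided) had p = 0.029, the smallest that 4 libraries against 4 can give. Counts are per gene, so they do not show which exons the remaining reads came from.

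Slc1a4 was the single gene called in the KO cortex at an adjusted limma p below 0.05, which is 0.00613% of the 16300 genes tested. At an unadjusted p below 0.05 there were 1078 genes, or 6.61%. For 80.1% of all genes the 95% interval of the KO to WT ratio lay inside 1.5-fold in either direction. Among the 8043 genes with a mean of 500 or more, that share was 98.9%, while for the 3034 genes with a mean below 50 it was 15.2%. These intervals show how precisely the ratios were estimated and do not measure which changes the adjusted test could call. Differences of 1.5-fold or more could also miss the call. Dusp4, with a KO to WT ratio of 1.495, had a limma adjusted p of 0.548, and Prlr, with a ratio of 2.745, had 0.749. A gene that was not called may therefore still differ. DESeq2, run on the recovered read counts, called 14 genes: Slc1a4 and 13 others that are identified where they are described.

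Short of that test, 283 genes (1.74%) were higher in all 4 KO libraries than in any WT library, and 381 (2.34%) were lower in all 4, together 4.07%. Such genes, with no overlap between the groups, are called apart here. The differences were small, with a median log2 difference of 0.185 among the former and -0.146 among the latter. Only 14 of the 283 and 6 of the 381, one of them Slc1a4, differed by more than 2-fold. Genes of the lower set had shorter exon models, with a median of 2792 bases against 4243 bases over all genes tested, and genes of the higher set had longer ones, 6217 bases. The libraries carried a trend of that kind: the slope of log2 deviation on log2 exon length was positive in all 4 KO libraries (0.00399 to 0.0198) and in WT replicate 8 (0.0225), and negative in WT replicates 5, 6 and 7 (-0.0166, -0.0205 and -0.0362). With this trend removed, the counts were 253 higher and 275 lower.

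**Figure D1:**
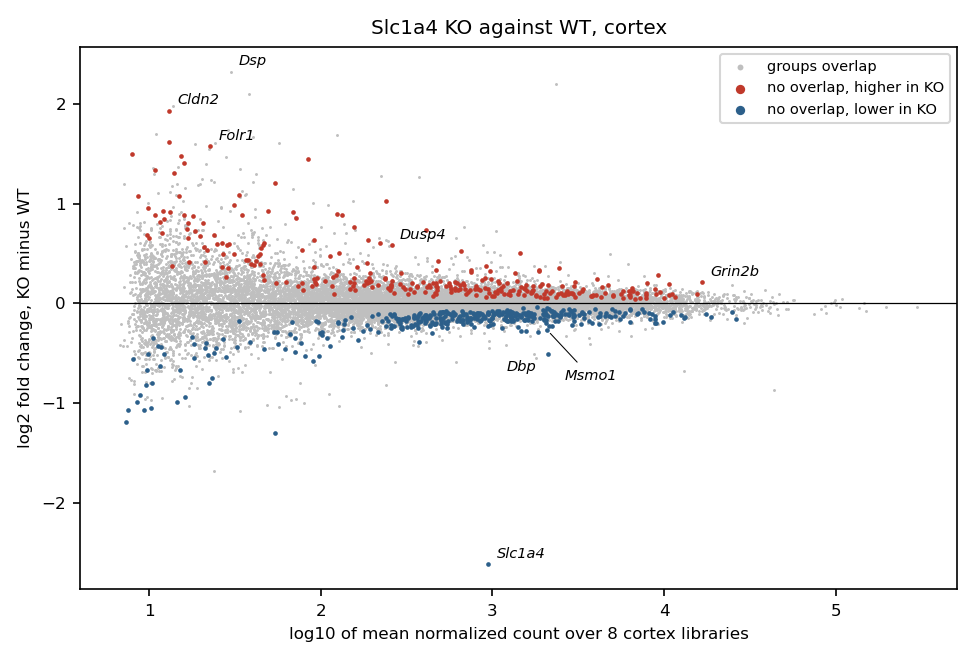
Each point is a gene tested in cortex, placed by its mean normalized count over the 8 libraries (log10 axis) and its log2 fold change, KO minus WT. Red and blue mark the 283 and 381 genes whose KO libraries all lay above or all below the WT libraries; Slc1a4, at -2.61, stands alone, and most of the others are within a narrow band around 0.

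Enzymes of cholesterol synthesis stood slightly lower in KO cortex. In the brain, which makes its own sterols, the pathway runs from acetyl-CoA through mevalonate and isoprenoids to squalene, and from squalene through lanosterol to cholesterol. Its genes share control by the sterol-sensing SREBP factors, which act with the CCAAT-binding factor NF-Y. None of the 28 genes listed passed the limma test. Of these, 24 were below 0 and 7 (25%, beside 2.34% of all genes) were lower in every KO library, with a median log2 difference of -0.129 beside 0.0003 over all genes tested. The median stayed between -0.164 and -0.0982 when single libraries were left out, and was -0.122 after removal of the length trend.

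Promoters of 4 of these genes are shown because their transcripts sit along the pathway and 3 of them, Mvk, Mvd and Msmo1, were lower in every KO library. Each sequence is the 250 bases before the RefSeq start site (assembly GRCm38.p6), written 5′ to 3′ on the gene's strand. Capitals mark CCAAT on either strand (read as ATTGG on the other) and, in Hmgcs1, the sterol regulatory element motif TCACNCCAC. The windows are chr5:114444019-114444268 (plus strand) for Mvk, chr8:122443423-122443672 (minus strand) for Mvd, chr8:64733579-64733828 (minus strand) for Msmo1 and chr13:119690101-119690350 (plus strand) for Hmgcs1.
Mvk: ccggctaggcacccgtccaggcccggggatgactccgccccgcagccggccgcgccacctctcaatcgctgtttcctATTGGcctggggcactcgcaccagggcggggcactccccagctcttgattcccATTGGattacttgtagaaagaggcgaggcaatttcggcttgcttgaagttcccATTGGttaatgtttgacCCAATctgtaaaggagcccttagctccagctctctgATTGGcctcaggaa
Mvd: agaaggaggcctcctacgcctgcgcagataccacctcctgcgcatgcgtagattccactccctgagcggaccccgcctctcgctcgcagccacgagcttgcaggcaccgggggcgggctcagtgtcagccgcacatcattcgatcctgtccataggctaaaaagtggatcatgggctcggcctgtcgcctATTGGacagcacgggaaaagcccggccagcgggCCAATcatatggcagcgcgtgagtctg
Msmo1: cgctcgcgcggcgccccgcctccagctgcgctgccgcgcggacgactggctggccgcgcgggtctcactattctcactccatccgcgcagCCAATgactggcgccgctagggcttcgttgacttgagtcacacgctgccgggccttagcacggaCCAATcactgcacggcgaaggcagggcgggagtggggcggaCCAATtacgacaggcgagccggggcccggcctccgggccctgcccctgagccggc
Hmgcs1: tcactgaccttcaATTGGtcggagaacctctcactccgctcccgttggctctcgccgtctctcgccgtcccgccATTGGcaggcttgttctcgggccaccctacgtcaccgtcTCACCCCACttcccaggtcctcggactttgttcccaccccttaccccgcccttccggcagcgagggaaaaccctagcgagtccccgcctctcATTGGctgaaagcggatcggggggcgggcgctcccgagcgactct
CCAAT occurred 5 times in the Mvk window, 2 times in Mvd, 3 times in Msmo1 and 3 times in Hmgcs1. Of the 28 listed genes, 20 had a promoter in the RefSeq table, and 18 of these (90%) held CCAAT in at least 1 window, against 37.5% of all 27025 genes with a promoter. TCACNCCAC, searched on both strands, was in 1 of the 20, Hmgcs1, and in 1.22% of all genes. A match describes these letters in this window and does not show that a factor binds there.

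The mevalonate steps had the larger differences, with 7 of 8 genes below 0 and a median of -0.222. Without overlap were 4 (50%, beside 2.34% of all genes). Mvk, mevalonate kinase, stood at 338, 338, 333 and 332 normalized counts in KO and at 403, 395, 402 and 392.02 in WT. Its groups were apart and each was tight, with a log2 difference of -0.25 (SE 0.058, limma adjusted p = 0.749). Mvd, mevalonate diphosphate decarboxylase, stood at 334, 323, 320 and 312 in KO and at 398, 465, 411 and 407 in WT. Every KO library was below every WT library, by -0.38 on the log2 scale (SE 0.070, limma adjusted p = 0.548); DESeq2 called this gene. Acat2, which condenses acetyl-CoA, and Idi1, the isopentenyl diphosphate isomerase, were the other members without overlap, at -0.21 (SE 0.059) and -0.24 (SE 0.082). Hmgcs1, which makes HMG-CoA, was at -0.17 (SE 0.055), with KO replicate 3 (8661) above WT replicate 8 (8496).

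All 12 genes of the squalene and sterol steps were below 0, with a median of -0.129. Msmo1, the sterol C4-methyl oxidase, stood at 1897, 1806, 1915 and 1967 normalized counts in KO against 2190, 2335, 2310 and 2303 in WT. The lowest WT library was above the highest KO library, and the log2 difference was -0.27 (SE 0.044, limma adjusted p = 0.548). It was the second gene after Slc1a4 in the DESeq2 calls. Lss, lanosterol synthase, was at -0.24 (SE 0.082), but KO replicate 1 (1231) lay inside the WT range. Sqle, squalene epoxidase, stood at -0.07 (95% interval -0.20 to 0.06). WT replicate 6 had the highest value of Lss and Sqle among the WT libraries.

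Regulators showed less. Insig1, which holds SREBP in the endoplasmic reticulum and is itself a target of it, stood at 1949, 1821, 1936 and 1958 in KO and at 2027, 2559, 2280 and 1960 in WT. Its groups were separated only narrowly, with a log2 difference of -0.20 (SE 0.076). Srebf2, the SREBP factor of sterol genes, had equal means of 6647 normalized counts in both groups (95% interval of the log2 difference -0.09 to 0.10). The 12 genes of cholesterol export and oxysterol response had a median of -0.0305, with none apart. In striatum, Mvd was at 0.01 (SE 0.20) and Msmo1 at -0.04 (SE 0.10) in the comparison of 3 KO with 4 WT striatum libraries. The difference between the tissues did not pass the limma test for Mvd or Msmo1 (adjusted p = 0.961 for each).

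**Figure D2:**
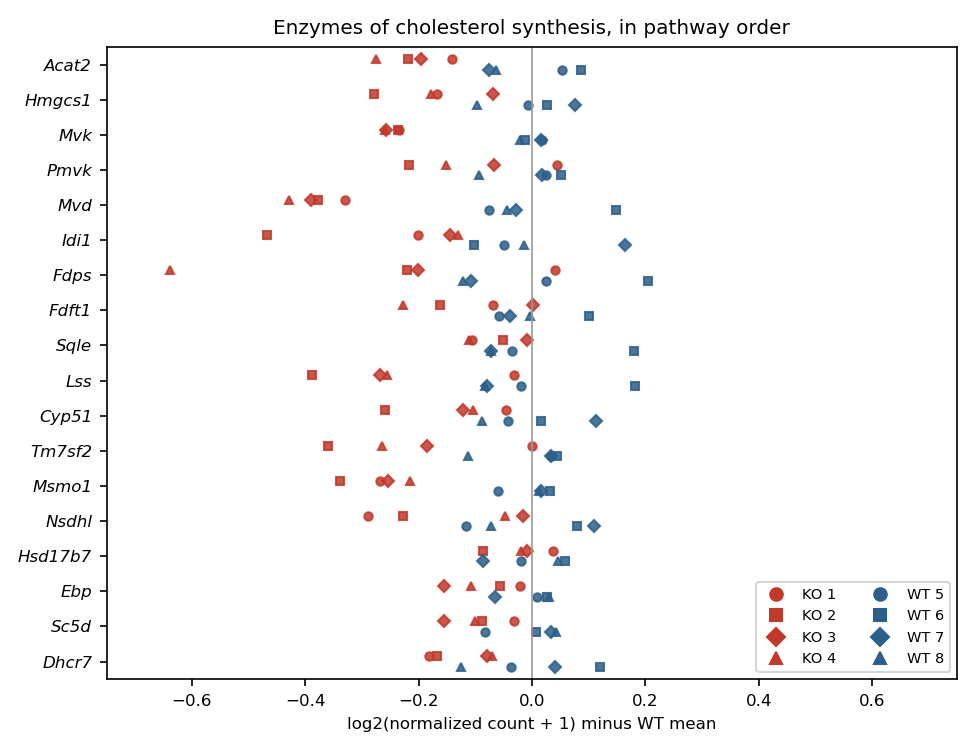
Log2 normalized count of 18 enzymes of cholesterol synthesis in each cortex library, minus the mean of the WT libraries, with earlier steps at the top and later steps at the bottom; red points are the 4 KO and blue points the 4 WT libraries. Points of Mvk, Mvd and Msmo1 form 2 separate groups, while those of Hsd17b7 overlap.

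Of the genes with a mean of at least 20 whose groups did not overlap, the 12 higher in KO with the smallest p were Dusp4, Col8a2, Crim1, Prlr, Folr1, Vit, Grin2b, St6galnac5, Slc4a7, Bche, Robo1 and Bdnf. None passed the limma test (adjusted p = 0.548 for the first 3 and 0.749 for the rest), and DESeq2 called Dusp4, Col8a2, Crim1, Prlr, Folr1 and Grin2b. Dusp4, a phosphatase that switches off ERK-type MAP kinases in the nucleus (chromosome 8, positions 34807297 to 34819894, plus strand), stood at 283, 301, 329 and 328 normalized counts in KO. In WT it stood at 205, 175, 210 and 240. The log2 difference was 0.58 (SE 0.10, 95% interval 0.36 to 0.81), and striatum gave 0.71 (SE 0.22).

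Bdnf, the activity-regulated neurotrophin, stood at 969, 1173, 988 and 1028 in KO and at 839, 682, 899 and 793 in WT. All KO libraries were above all WT libraries, by 0.37 on the log2 scale (SE 0.088). KO replicates 2 and 4 were the highest, and without both the difference was 0.29. In striatum, where its level is lower, the mean of Bdnf was 374 ± 86.2 over 3 KO libraries and 102 ± 56.6 over 4 WT libraries (SD). The difference between the striatal and cortical effects was 1.75 on the log2 scale and did not pass the limma test (adjusted p = 0.961). Robo1, a guidance receptor for Slit proteins, was at 0.32 (SE 0.075), with KO libraries from 1008 to 1202 and WT libraries from 762 to 925. Crim1, a membrane protein that binds bone morphogenetic proteins, stood at 1932 to 2230 in KO and 1523 to 1760 in WT. St6galnac5, a sialyltransferase of brain gangliosides, and Slc4a7, a sodium bicarbonate cotransporter, were at 0.34 (SE 0.076) and 0.33 (SE 0.076). Without KO replicates 2 and 4, St6galnac5 was at 0.21 and Slc4a7 at 0.24. After removal of the length trend, Slc4a7 was at 0.27 and Robo1 at 0.255.

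Among the 12, Prlr and Folr1 were on the list of choroid plexus markers, and Col8a2 is described with them. Which tissue their reads came from was not tested. Prlr, the prolactin receptor, stood at 144, 164, 70.7 and 116 in KO and at 45.2, 70.4, 30.2 and 34.1 in WT. Folr1, a folate receptor of the choroid plexus, stood at 50.2, 41.2, 20.6 and 27.1 in KO and at 14.1, 12.4, 6.40 and 10 in WT. Col8a2, a collagen of basement membranes, stood at 105, 90.8, 58.1 and 54.1 in KO and at 35.8, 33.3, 27.4 and 30.1 in WT. For each of them KO replicates 1 and 2 were among the highest libraries, as they were for the choroid plexus list as a whole.

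Of 20 choroid plexus markers listed, 19 reached the filter on low values (10 or more normalized counts in at least 3 libraries). These 19 were above 0, with a median log2 difference of 1.19, and 4 (21.1%, beside 1.74% of all genes) were apart (Folr1, Prlr, Trpv4 and Cldn2). Of the 19, 5 reached the filter only through the KO libraries, Cldn2 among them, so they had to differ; of the other 14, 3 were apart. Their summed level ran from 2636 to 7872 normalized counts in KO libraries and from 1517 to 3190 in WT libraries, so the groups overlapped. The list's score, the median log2 deviation of its genes from their cortex mean, was 1.01, 1.11, -0.21 and 0.52 in KO replicates 1 to 4. In WT replicates 5 to 8 it was -0.45, -0.08, -1.18 and -0.72. KO replicate 3 lay within the WT range, and without it the median was 1.64, while it was 0.796 without KO replicate 2. Cldn2, a claudin of the choroid epithelium that DESeq2 called, stood at 28.2, 21.5, 13.4 and 21.5 in KO and at 1.88, 5.70, 6.40 and 6.02 in WT. Sostdc1, a secreted inhibitor that DESeq2 also called, was 18.8 in KO replicate 3 and 49.3 to 51.5 in the other KO libraries, against 9.14 to 20 in WT. In bulk tissue, fewer or more cells of a type and less or more RNA per cell cannot be told apart. The part of the choroid plexus transcripts in other results was not tested.

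Ependymal markers, genes of the ciliated cells that line the ventricles, were above 0 in the 19 of 21 genes that reached the filter, with 6 apart (31.6%, beside 1.74% of all genes) and a median of 0.717. Spag17 and Tmem212 reached the filter only through the KO libraries, so the filter itself favoured a difference in them. Of the other 17 genes 4 were apart, and their values are not reported here. The summed level of the list was 1428 to 1654 in KO and 903.1 to 1420 in WT, which did not overlap. The gene of Spag17, a cilium protein, overlaps Wdr3 on the opposite strand, which had a mean of 578 beside 13 for Spag17. Spag17 stood at 19.4, 24.3, 19.7 and 15.9 in KO and at 7.53, 4.75, 2.74 and 10 in WT. Tmem212 stood at 24.6, 25.3, 19.7 and 21.5 in KO and at 16.9, 9.51, 2.74 and 8.02 in WT. WT replicate 7 had the lowest values of both, with a list score of -1.39, and the list median was 0.445 without it. Meningeal and fibroblast markers were above 0 in 19 of 22 genes, with none apart and a median of 0.282, which was 0.0971 on leaving out WT replicate 8 and reached 0.489 when WT replicate 7 was dropped.

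Among markers of other brain regions, all 26 striatal projection neuron genes were below 0 with a median of -0.338, and none was apart. WT replicates 5 and 8 scored 0.65 and 0.85 and the other 6 libraries 0.05 or lower. Without WT replicate 8 the list median was -0.146, and without WT replicate 7 it was -0.628. Hippocampal markers were above 0 in 10 of 11 genes with a median of 0.798 and were high in KO replicates 2 and 4. Without KO replicate 4 that median was 0.241. Fibcd1, enriched in hippocampal CA1, stood at 750 and 1219 there and at 109 to 221 in the other 6 libraries; Dsp, a desmosomal protein of dentate granule cells, stood at 68.3 and 122 there and at 15.8 or less elsewhere. Thalamic markers had a median of 0.0294 over 12 genes.

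**Figure D3:**
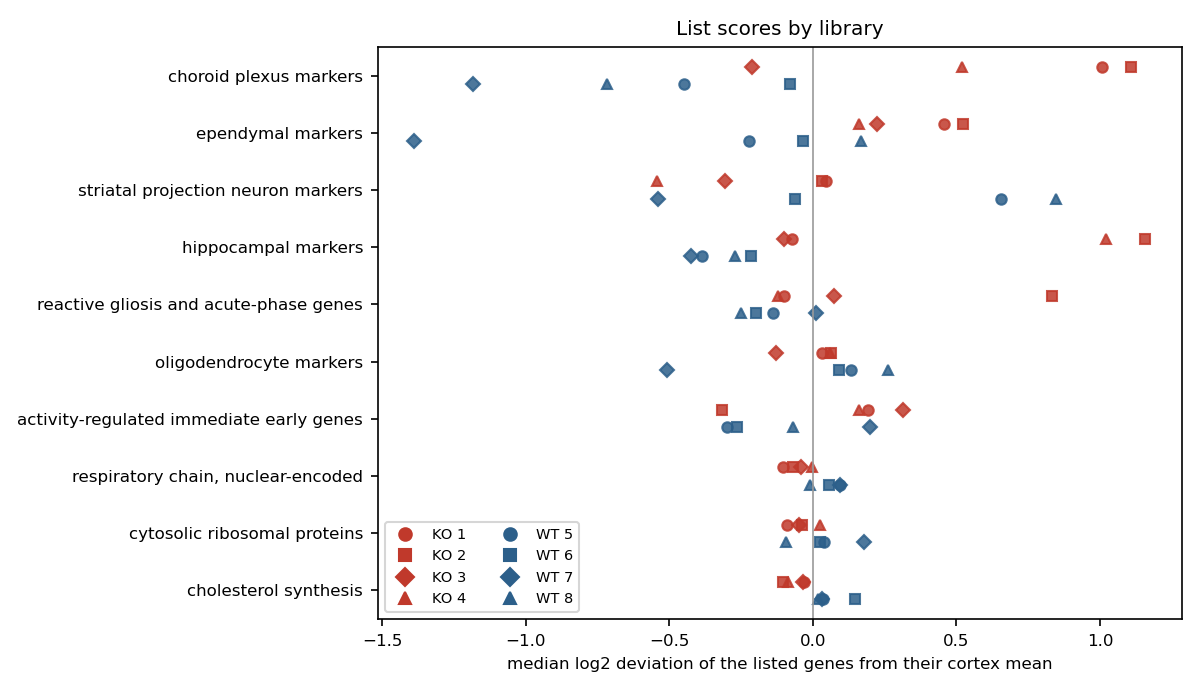
Score of each gene list in each cortex library, as the median log2 deviation of its genes from their mean over the 8 libraries; red marks KO and blue WT, with 1 symbol per replicate. KO replicates 2 and 4 stand apart in hippocampal markers, WT replicates 5 and 8 in striatal markers, and WT replicate 7 in ependymal and oligodendrocyte markers.

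The 12 lower genes named by the same rule, after Slc1a4, were Msmo1, Mvd, Rnd2, Gng3, Cox6b1, Dbp, Mvk, Twf2, Ormdl2, D10Jhu81e, Mid1ip1 and Thop1. None passed the limma test (adjusted p = 0.548 for Msmo1, Mvd and Rnd2 and 0.749 for the rest), and DESeq2 called Msmo1, Mvd, Rnd2, Gng3 and Dbp. Rnd2, a small GTPase of migrating neurons, stood at 1488, 1372, 1426 and 1401 normalized counts in KO and at 1790, 1632, 1805 and 1645 in WT. All KO libraries were below all WT libraries, by -0.27 on the log2 scale (SE 0.051), and striatum gave -0.22 (SE 0.090). Gng3, a G protein gamma subunit of neurons, was at -0.18 (SE 0.041; -0.12 after removal of the length trend), and Twf2, an actin-binding twinfilin, at -0.21 (SE 0.051). Mid1ip1, which activates acetyl-CoA carboxylase in fatty acid synthesis, stood at 1859 to 2102 in KO and 2110 to 2452 in WT, where the nearest libraries almost met. Thop1, a peptidase of short neuropeptides, was at -0.22 (SE 0.055).

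Dbp, a transcription factor driven by the circadian clock (chromosome 7, positions 45705088 to 45710203, plus strand), had the largest difference of these 12. It stood at 2009, 1312, 1819 and 1897 normalized counts in KO and at 2387, 2457, 2260 and 2806 in WT, -0.51 on the log2 scale (SE 0.12). KO replicate 2 was the lowest library and WT replicate 8 the highest. Striatum gave -0.72 (SE 0.16), with a mean of 2247 ± 361 over 3 KO and 3717 ± 623 over 4 WT libraries (SD). Of 23 clock and clock-controlled genes, 16 were below 0 with a median of -0.0905. Dbp alone was apart (4.35%, beside 2.34% of all genes). Ciart, a clock repressor, was at -0.43 (SE 0.14), and Nr1d1, the nuclear receptor REV-ERB alpha, at -0.13 (SE 0.050). The clock list was at -0.0205 without KO replicate 2, and at 0.0139, on the other side of 0, without KO replicates 2 and 4. The time of day of sampling is not given in the sources used here.

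**Figure D4:**
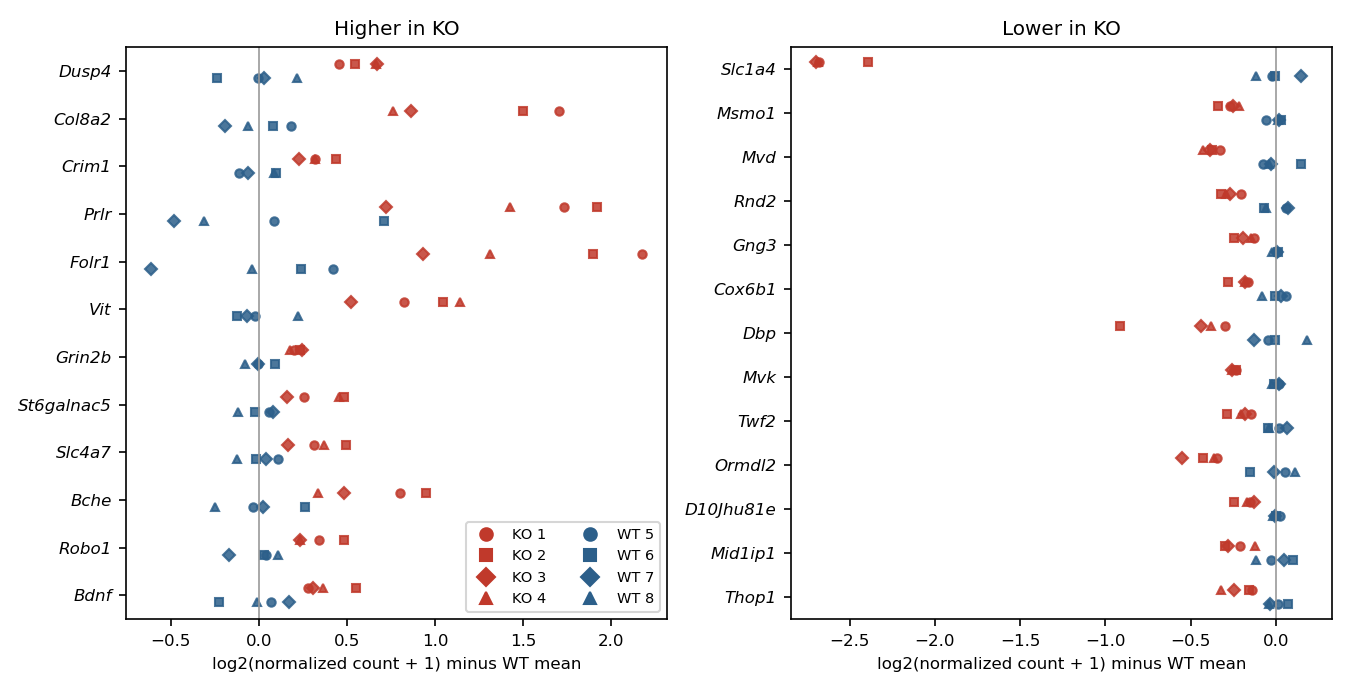
Log2 normalized count of the 12 higher genes (left), and of Slc1a4 and the 12 lower genes (right), in each cortex library minus the WT mean; red is KO, blue is WT, and 1 symbol stands for 1 replicate. Slc1a4 lies more than 2 log2 units below WT, the other lower genes within about 1, and the choroid plexus genes Prlr and Folr1 spread widest on the left.

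Other carriers of neutral amino acids kept close to the WT level. Of 41 tested, 23 were above 0 and 18 below, and the median was 0.0173. Slc1a4 was the single one apart (2.44%, beside 2.34% of all genes). Slc1a5, the paralogue ASCT2, was scarce, with 44.9 to 63.5 normalized counts in KO and 53.0 to 62.8 in WT (log2 difference -0.09, 95% interval -0.41 to 0.24). Slc7a10, the exchanger Asc-1 that moves D-serine and glycine, stood at 640 to 742 in KO and 666 to 893 in WT (-0.08, 95% interval -0.28 to 0.11). The glutamine carriers Slc38a1 and Slc38a2, which also take serine and alanine, were at 0.08 (95% interval -0.03 to 0.19) and 0.16 (95% interval -0.16 to 0.47). Slc38a2 was high in KO replicate 2 (6427) and WT replicate 8 (5885) and between 3819 and 4605 in the other 6 libraries.

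The large neutral amino acid exchanger was also close to WT. Slc7a5, its light chain, was at 0.04 (95% interval -0.12 to 0.20), and Slc3a2, its heavy chain, at -0.03 (95% interval -0.13 to 0.07). Slc6a9, the glial glycine transporter, was at 0.02 (95% interval -0.16 to 0.21). The astrocytic glutamate transporters Slc1a2 and Slc1a3 were at 0.04 (95% interval -0.15 to 0.23) and -0.02 (95% interval -0.22 to 0.18), with WT replicate 7 highest for both, and neuronal Slc1a1 was at 0.03 (95% interval -0.06 to 0.13). After Slc1a4, the members with the largest differences were Slc38a5, a glutamine and serine carrier, at 0.62 (SE 0.23), and Slc7a3, a cationic amino acid transporter, at 0.34 (SE 0.14). Slc38a5 ran from 52.8 to 104 in KO and from 36.1 to 68.6 in WT, and the groups overlapped.

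Enzymes that make and use serine showed no gene apart: of 36 tested, 16 were above 0 and 20 below, with a median of -0.00635. In the synthesis branch, Phgdh, which takes the first step from glycolysis, stood at 1125, 867, 1024 and 1119 normalized counts in KO and at 1214, 1276, 1231 and 1118 in WT. KO replicates 1 and 4 were above WT replicate 8, and the log2 difference was -0.23 (SE 0.082, limma adjusted p = 0.749). Without KO replicate 2, the lowest library, it was -0.15. Psat1 and Psph, the next steps, were at -0.08 (95% interval -0.19 to 0.03) and 0.00 (95% interval -0.18 to 0.18). Srr, the racemase that forms D-serine, had a mean of 2702 ± 70.4 in KO cortex and 2679 ± 59.2 in WT cortex (SD, n = 4 each), a log2 difference of 0.01 (95% interval -0.08 to 0.10).

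Enzymes from serine to glycine were also close to WT. Shmt1 was at 0.15 (95% interval -0.29 to 0.58), mitochondrial Shmt2 at -0.01 (95% interval -0.18 to 0.16), and Gldc, which breaks glycine down, at -0.09 (95% interval -0.40 to 0.23). Mtr, methionine synthase, was at 0.30 (SE 0.12) and Gamt, the last enzyme of creatine synthesis, at -0.33 (SE 0.11), both with overlap. Targets of the amino acid stress factor ATF4 and tRNA synthetases, which rise when amino acids are short, had 19 of 28 genes above 0 and a median of 0.0306. Eprs, the synthetase for glutamate and proline, was the 1 member apart (3.57%, beside 1.74% of all genes). It stood at 2774 to 2891 in KO and 2586 to 2762 in WT. Its log2 difference was 0.09 (SE 0.040), and 0.02 after removal of the length trend.

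Glutamate receptors were mostly above 0: 17 of 24 genes, 4 of them apart (16.7%, beside 1.74% of all genes), with a median of 0.0298, which moved to 0.0771 when KO replicate 2 was dropped and to 0.0137 when WT replicate 7 was. Their summed level was 114800 to 120400 normalized counts in KO and 105500 to 111900 in WT, without overlap. Among the NMDA receptor subunits, 5 of 6 were above 0 with a median of 0.151. Grin2b, a glutamate-binding subunit (chromosome 6, positions 135713233 to 136173511, minus strand), stood at 17576, 18022, 18169 and 17339 in KO and at 15280, 16324, 15257 and 14502 in WT. The groups were apart, with a log2 difference of 0.21 (SE 0.048, 95% interval 0.11 to 0.32), which was 0.13 after removal of the length trend. Grin2a, the other main glutamate-binding subunit, stood at 10733, 11424, 11181 and 12190 in KO and at 10077, 10147, 9184 and 10317 in WT, 0.20 on the log2 scale (SE 0.054). Both were higher in every KO library, and neither passed the limma test (adjusted p = 0.749).

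Grin1, the obligatory glycine- and D-serine-binding subunit, was at 0.03 (95% interval -0.08 to 0.13). Grin3a was at 0.21 (SE 0.087), Grin2d at 0.10 (SE 0.11), and Grin2c, at -0.15 (SE 0.075), all with overlap. In striatum Grin2b was at -0.05 (SE 0.11). Its effects in the tissues differed by -0.26, which did not pass the limma test (adjusted p = 0.961). NMDA subunits have long transcripts, and the median of the 6 was 0.107 after removal of the length trend.

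Of the AMPA receptor subunits, Gria1 was apart, at 9020, 11199, 8726 and 11907 in KO against 8284, 8483, 7878 and 8565 in WT (log2 difference 0.29, SE 0.092). KO replicates 2 and 4, which were also high in hippocampal markers, were the highest, and without both the difference was 0.10. Gria2, Gria3 and Gria4 were at 0.07 (95% interval -0.05 to 0.19), 0.01 (95% interval -0.14 to 0.17) and 0.00 (95% interval -0.12 to 0.12). Grm5, a metabotropic receptor, was the fourth receptor apart, with 5818 to 6188 in KO and 5456 to 5642 in WT; its log2 difference was 0.08 after removal of the length trend. Among 20 GABA genes the median was 0.00985, with 1 apart in each direction. That is 5% higher, beside 1.74% of all genes, and 5% lower, beside 2.34%. The lower one was Slc32a1, which loads GABA and glycine into vesicles (-0.17, SE 0.052), and the higher one was a receptor subunit. Gabrd, the delta subunit, was at -0.32 (SE 0.14), with KO replicate 2 lowest at 1018.

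Nuclear-encoded genes of the respiratory chain stood lower by a small amount, and their list scores overlapped between the groups. The list scored -0.103, -0.069, -0.043 and -0.002 in KO replicates 1 to 4. In WT replicates 5 to 8 it scored 0.094, 0.057, 0.095 and -0.01, so KO replicate 4 lay above WT replicate 8. Of 77 genes, 76 were below 0 and 16 (20.8%, beside 2.34% of all genes) were lower in every KO library, with a median log2 difference of -0.116 and a summed level of 200800 to 212100 in KO against 213300 to 228700 in WT. All complexes shared the sign, with medians of -0.113 for complex I, -0.0898 for complex II, -0.112 for complex III, -0.166 for complex IV and -0.0999 for ATP synthase. Cox6b1, a complex IV subunit, stood at 3141, 2891, 3101 and 3101 in KO and at 3660, 3504, 3585 and 3315 in WT (log2 difference -0.20, SE 0.046). Cox7a2, of the same complex, was at -0.22 (SE 0.058), Atp5k of ATP synthase at -0.24 (SE 0.063) and Ndufb9 of complex I at -0.17 (SE 0.048), each without overlap. After removal of the length trend the median was -0.065, Cox6b1 was at -0.12 and Ndufb9 at -0.10. The 12 mitochondrially encoded genes tested had a median of -0.0226, with none apart.

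Cytosolic ribosomal proteins, also short, showed the same sign in 75 of 78 genes, with a median of -0.0744. Rpl7a and Rpl29 were apart (2.56%, beside 2.34% of all genes, so near the background), at -0.11 (SE 0.040) and -0.15 (SE 0.059). Removal of the length trend brought the list median to -0.0228. The median was -0.0259 without WT replicate 7, the library with the steepest trend, and -0.122 without WT replicate 8. The part of the length trend in these values was not tested. Heat shock proteins and chaperones were below 0 in 24 of 31 genes (median -0.0683). Hspe1, the mitochondrial co-chaperonin, was apart (3.23%, beside 2.34% of all genes), at 792 to 933 in KO and 936 to 1110 in WT. Among chaperones of the endoplasmic reticulum, Hspa5, the BiP protein, was at -0.25 (SE 0.082) and Manf, a secreted stress factor, at -0.25 (SE 0.076), both with overlap.

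Immediate early genes, which neurons switch on within minutes of activity, were above 0 in 29 of 31, with a median of 0.177, and their libraries overlapped widely between the groups. The list scored 0.19, -0.32, 0.31 and 0.16 in KO replicates 1 to 4 and -0.30, -0.27, 0.20 and -0.07 in WT replicates 5 to 8. KO replicate 2 was the lowest of all and WT replicate 7 within the KO range. Leaving out WT replicate 7 gave a median of 0.358, and leaving out WT replicate 5 gave 0.0889. Fos ran from 509 to 1039 normalized counts in KO and from 321 to 1441 in WT, and Arc from 3830 to 8828 and from 2758 to 8322. Bdnf was the 1 member apart (3.23%, beside 1.74% of all genes). Trib1, a pseudokinase, was at 0.32 (SE 0.11) and the nuclear receptor Nr4a3 at 0.58 (SE 0.22), both with overlap. Feedback genes of the MAP kinase pathway had a median of 0.067 over 20 genes, with Dusp4 alone apart (5%, beside 1.74% of all genes).

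Markers of cortical layers gave no gene apart among 38 tested (median 0.0151). The 10 of layers 2 to 4 had a median of -0.107, which was 0.00413 without KO replicate 2. Layer 5 had a median of 0.0646, which was 0.000479 without KO replicate 3. Layer 6 had a median of 0.0554, which turned to -0.0315 without WT replicate 7. Neurod6, a factor of excitatory neurons, was at 0.37 (SE 0.11), with KO replicates 2 and 4 highest (2748 and 2491) and a difference of 0.175 without both, and Nrgn, a postsynaptic calmodulin-binding protein, at -0.20 (SE 0.075). Interneuron and cholinergic markers were below 0 in 19 of 26 genes (median -0.0746). Chat, which makes acetylcholine, was 47.1 and 69.2 in WT replicates 5 and 8, those high in striatal markers. It was 19 and 16.4 in WT replicates 6 and 7, and 5.60 to 16.8 in KO. Slc18a3, the vesicular acetylcholine transporter, lies inside the Chat locus on the same strand, so the reads of these genes can be mixed; it was lower in every KO library (-1.07, SE 0.35). Chat and Slc18a3 reached the filter only through the WT libraries, so the filter itself favoured lower KO values in them. Slc18a3 had a mean of 9.39 normalized counts. It was the 1 member of the 26 apart (3.85%, beside 2.34% of all genes). Pvalb, the parvalbumin of fast-spiking interneurons, was at -0.23 (SE 0.089).

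Glial and vascular lists had medians near 0 and no gene apart: -0.059 for 20 astrocyte, 0.0212 for 28 oligodendrocyte, -0.0456 for 19 microglia and 0.0581 for 22 endothelial and pericyte genes. Without WT replicate 7, the astrocyte and microglia medians were 0.0198 and 0.00371, and the endothelial and pericyte median was 0.168. That median was 0.00153 without WT replicate 6. The oligodendrocyte list stood at -0.51 in WT replicate 7, and its median was -0.137 without that library. Reactive gliosis and acute-phase genes were above 0 in 20 of 24, with 1 apart and higher (4.17%, beside 1.74% of all genes). Steap4 reached the filter only through the KO libraries and was not apart. The list median was 0.303, which was 0.112 without KO replicate 2. That library had a list score of 0.83, Osmr at 409 (119 to 153 in the other KO and 98.9 to 112 in the WT libraries) and Gfap, the astrocyte filament protein, at 13720. Cd109 was at 1.1 (SE 0.31), with overlap. Interferon response genes had a median of -0.0602 over 24 genes (-0.14 without WT replicate 8), with H2-K1, a class I histocompatibility gene, at -0.28 (SE 0.084). The 5 blood cell genes tested had a median of 0.21 (0.0719 without KO replicate 1), 28 synaptic vesicle genes -0.025 (2 apart and lower, 7.14% beside 2.34% of all genes) and 27 potassium channel genes 0.0422.

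**Figure D5:**
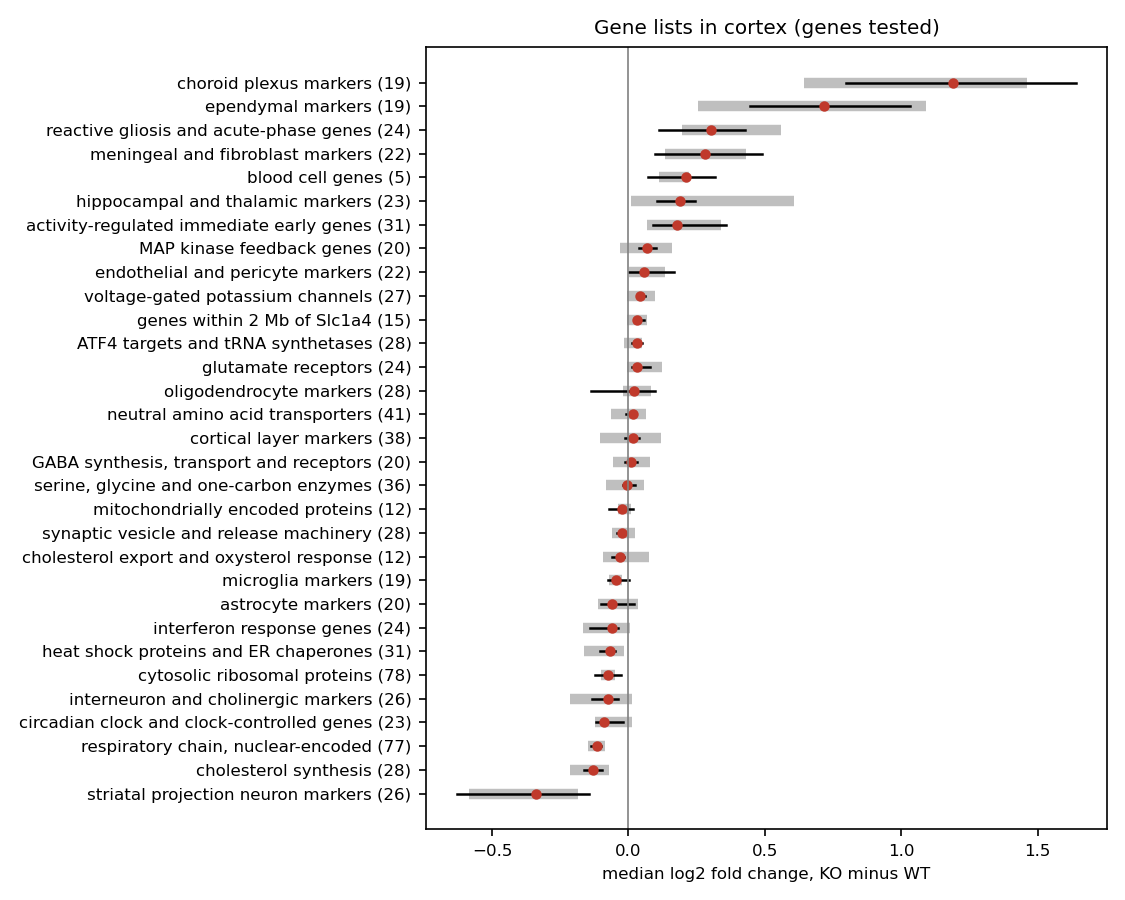
Median log2 fold change, KO minus WT, of each gene list in cortex (red point), with the middle 50% of its genes (grey bar) and the range of the median when each of the 8 libraries is left out (black line); the number of genes tested is in brackets. Choroid plexus and ependymal markers reach 1.19 and 0.717 and striatal markers -0.338, while most other lists lie within 0.2 of 0.

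Genes around Slc1a4 on chromosome 11 stayed near the WT level. Of 15 genes within 2 Mb, 11 were above 0 and 4 below, none was apart, and the median was 0.033 (-0.0119 without KO replicates 2 and 4). The nearest protein-coding neighbours were Cep68, a centrosomal protein (log2 difference 0.05, 95% interval -0.08 to 0.18), and Sertad2, a transcriptional co-regulator (0.03, 95% interval -0.09 to 0.15).

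Set beside striatum, where no gene of 16274 passed the same test with 3 KO and 4 WT libraries (1140, or 7.01%, at an unadjusted p below 0.05), 62.1% of cortex genes with a striatal value had the same sign in both tissues. For genes higher in every KO cortex library the share was 77.5%, and for those lower 75.8%; 9 of the 12 named higher and 10 of the 12 named lower genes had it. Slc1a4 itself was at -2.56 (SE 0.26) in striatum. A test of the difference between the KO effects in the tissues called 1 of 17030 genes (0.00587%), with 834 (4.9%) at an unadjusted p below 0.05. That gene was Scube1, a secreted and membrane-bound protein used here as a layer 5 marker. In cortex it stood at 1965 to 2293 normalized counts in KO and 1968 to 2234 in WT (log2 difference 0.01, 95% interval -0.12 to 0.14), while in striatum its mean was 561 ± 147 over 3 KO and 150 ± 22.4 over 4 WT libraries (SD). The difference of 1.86 on the log2 scale had a limma adjusted p of 0.0017, but with the replicate number as a block the adjusted p was 0.13 and 0 genes were called. The block fit left out KO cortex replicate 1, whose number no striatum library has.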

How the data were processed

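Libraries were made from total RNA of cerebral cortex with the NEBNext Ultra RNA kit, per the labels' protocols. TopHat2 2.1.1, HTSeq 0.6.0 and the build GRCm38 appear in the submitters' processing notes; the strand setting of counting is not given in the sources used here, so genes that overlap another gene on the opposite strand (Crim1, Folr1, St6galnac5, Rnd2, Gng3, Dbp, Ormdl2 and others) are uncertain. Each deposited signal value is a count of reads over a scaling factor of its library; dividing by the step gave whole reads (within 0.001) for all values.

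The 8 cortex columns alone were fitted with limma 3.58.1 (R 4.3.3) on log2(value + 1) with a variance trend, two-sided, adjusted by Benjamini-Hochberg over 16300 genes and called below 0.05. Fold changes are on that scale and understate low genes. Alternatives used edgeR 4.0.16, DESeq2 1.42.0 and voom on recovered reads, other pseudocounts, filters and scalings, and each library left out. Replicates differed by more than counting noise (mean chi-square per gene of at least 7.15). The test was checked on simulated counts. Positions came from GENCODE M21, promoters from RefSeq (GRCm38.p6). Named were Slc1a4, called genes, the 12 higher and 12 lower genes with the smallest p among those with a mean of at least 20 and no overlap, leading members of each list, fixed serine, receptor and sterol genes, and the neighbours of Slc1a4; some are not reported here, and Cldn2, Sostdc1, Osmr, Cd109, Dsp, Fibcd1, Gfap, Trpv4, Fos, Arc, Slc1a2, Slc1a3 and Scube1 were chosen after their values were seen. The genes and lists were chosen with earlier results of these data known, and lists were only counted. Figures used Python and matplotlib.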

Additional observations from a re-analysis of the deposited data

Results flagged for a closer look

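Of 274 groups of 4 libraries (a gene or list score in KO or WT cortex), 24 (8.76%) had a single library far from the other 3. The cutoff flags about 1 in 20 only among independent groups of normal values chosen in advance. Some of these genes were chosen after their values were seen, and some lists hold flagged genes, so that rate is no reference here. KO replicate 2 stood apart in normalized counts for Slc1a4 at 308 (the other 3 at 249 to 252), Cox6b1 at 2890 (the other 3 at 3100 to 3140), Slc38a2 at 6430 (the other 3 at 4400 to 4600) and Srr at 2600 (the other 3 at 2730 to 2740). The same library stood apart for Grin2d at 340 (the other 3 at 474 to 479), Grin3a at 1340 (the other 3 at 1130 to 1140), Gabrd at 1020 (the other 3 at 1590 to 1670) and Insig1 at 1820 (the other 3 at 1940 to 1960). The same library stood apart for Nr1d1 at 3570 (the other 3 at 3410 to 3440), Osmr at 409 (the other 3 at 119 to 153) and Gfap at 13700 (the other 3 at 2920 to 4230). WT replicate 5 stood apart in normalized counts for Cldn2 at 1.88 (the other 3 at 5.7 to 6.4). KO replicate 3 stood apart in normalized counts for Sostdc1 at 18.8 (the other 3 at 49.3 to 51.5) and the score of oligodendrocyte markers at -0.13 (the other 3 at 0.031 to 0.062). WT replicate 7 stood apart in normalized counts for Slc1a2 at 127000 (the other 3 at 99400 to 103000), Slc3a2 at 2650 (the other 3 at 2460 to 2470), Gldc at 1050 (the other 3 at 758 to 792) and Dsp at 1.83 (the other 3 at 7.53 to 8.02). WT replicate 8 stood apart in normalized counts for Slc1a6 at 262 (the other 3 at 179 to 188), the score of circadian clock and clock-controlled genes at 0.189 (the other 3 at -0.016 to 0.018) and the score of hippocampal and thalamic markers at 0.072 (the other 3 at -0.139 to -0.122). WT replicate 6 stood apart in normalized counts for Sqle at 1910 (the other 3 at 1610 to 1650), Gfap at 6210 (the other 3 at 2740 to 2850) and the score of cholesterol synthesis at 0.148 (the other 3 at 0.018 to 0.035). The KO effect on Scube1 was larger in striatum than in cortex by 1.86 on the log2 scale (limma adjusted p = 0.0017). The limma adjusted p was 0.13 with the replicate number as a block, in a fit without KO cortex replicate 1.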

How the results depend on the processing

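The call of Slc1a4 held under every alternative run, and the number of genes called stayed at 1 under all of them (pseudocounts, filters, scalings, edgeR, voom, sample weights, robust variances, all 15 libraries in 1 fit, removal of the length trend and each cortex library left out) except DESeq2 on the recovered reads, which called 14; the cause was not tested. Leaving out KO replicates 2 and 4 together, chosen after seeing the data because of their hippocampal markers, also left 1. Genes without overlap numbered 224 to 296 higher and 275 to 372 lower under a mean of at least 50, 2 other scalings and removal of the length trend. For the genes named, 2281 of 2312 values under alternatives lay within the spread between replicates or, for Slc1a4, stayed called. Of the rest, 13 became calls, all with DESeq2, and 18 moved by more than that spread. Of 682 list medians, 6 moved by more than the spread of the list score. Other filters, robust variances and the fit of all 15 libraries cannot change a gene's log2 difference. Part of these counts was therefore fixed in advance, and they do not measure stability. With 1 library left out, 8 lists changed the sign of their median (neutral amino acid carriers, serine enzymes, GABA genes, mitochondrially encoded genes, layer, astrocyte, oligodendrocyte and microglia markers), none of which was farther from 0 than 0.059. Cortex alone allowed no paired analysis because its KO and WT libraries share no replicate number. For the difference between tissues, a fit with the replicate number as a block called 0 genes (868 at an unadjusted p below 0.05) against 1 without it. The block fit left out KO cortex replicate 1, whose number no striatum library has, so the sets of libraries differed. Leaving out that library without a block also called 1 gene. Whether a number marks the same mouse is not given in the sources used here; deviations of same-numbered libraries correlated at 0.00369 to 0.142, and 6 of 7 cortex libraries correlated best with their own number, a hint from the data and not from the design. Leaving out single libraries gave 1 to 8 genes: 8 without KO striatum replicate 4, 3 without WT striatum replicate 7, and 2 without KO striatum replicate 2 or 3. Depth limits genes with a mean below 50, for which the median half-width of the 95% interval was 0.603 on the log2 scale against 0.129 at 500 or more.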
